A study of Mus musculus with 59 samples.

Results

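Mice homozygous for a knock-in allele of Atxn3 with a single expanded repeat of 82 glutamines (KIHom) were compared with mice heterozygous for the same allele (KIHet) by RNA sequencing of the pons. The 8 libraries, 4 KIHom and 4 KIHet, were taken by their column names from the second block of the table, which holds 28 of the 59 samples the labels describe. KIHom mice carry 2 expanded alleles and no normal one, and KIHet mice carry 1 of each. The 6 wild-type libraries of the block (WT, 0 expanded alleles) gave the low end of the dose series, and 6 libraries heterozygous for a second knock-in, whose 82-glutamine repeat is duplicated (dupKIHet), gave a response measured in other mice. All were on a C57BL/6 background, no treatment is named in the labels, and age is not given in the sources used here. The series' design text speaks of individual mice, so each library was taken as 1 mouse. The block also holds 4 libraries each from mice hemizygous for a human ATXN3 transgene of 84 or 15 glutamines. The transgenic libraries were not compared here but entered the expression filter and the shared spread estimate.

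Spinocerebellar ataxia type 3 is a dominant disease in which an expanded CAG repeat lengthens a polyglutamine tract in ataxin-3, a deubiquitinase that trims ubiquitin chains from proteins. The pons, a brainstem region full of myelinated fibre tracts, is among the regions affected in patients. In a knock-in the expanded allele is read from the mouse gene's own promoter, so a homozygote has no normal copy left.

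The repeat lies in Atxn3 on chromosome 12, on the minus strand. It is shown here because it is the stretch that the knock-in alleles lengthen. In the reference mouse (GENCODE M21, GRCm38, chr12:101926527-101926581, exon 10 of the 11 exons of Atxn3-201) it reads as follows, with the glutamine codons in capitals, preceded by the last base of the codon split by the intron and followed by 36 coding bases.
Atxn3 repeat: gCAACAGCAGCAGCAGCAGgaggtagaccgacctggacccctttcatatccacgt
The normal mouse tract is thus 6 codons, 1 CAA and 5 CAG, at residues 292 to 297, against the 82 glutamines of the knock-in label. The sequence of the knock-in allele was not analysed here.

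The libraries showed the profile of female brainstem. Xist, expressed from the inactive X chromosome, stood at 1.29 to 2.13 FPKM (fragments per kilobase of transcript scaled to library size, the authors' unit) in KIHom and 1.54 to 2.40 FPKM in KIHet, and the Y-linked Ddx3y was at most 0.0215 FPKM. Hoxa2, a hindbrain gene, was present at 2.79 to 3.46 FPKM in KIHom and 2.67 to 3.53 FPKM in KIHet, as were the brainstem neuron genes Dbh, Tph2 and the glycine transporter Slc6a5, while the forebrain gene Tbr1 was at most 0.178 FPKM. Hoxb2 was listed at 0 in every library. Sequencing depth is unknown, since FPKM keep no read totals. The libraries differed widely in a transcript of the choroid plexus, which adjoins the pons: Ttr stood at 1874, 52.1, 42.2 and 33.6 FPKM in KIHom libraries 1 to 4 and at 632, 36.8, 3125 and 33.3 FPKM in KIHet libraries 1 to 4. KIHom library 1 and KIHet libraries 1 and 3 therefore stand apart, and results are also given without the libraries above 500 FPKM of Ttr where that matters.

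No gene differed between homozygotes and heterozygotes after correction. Of 14802 genes tested (at least 1 FPKM in 3 libraries of the block), 0 passed a Benjamini-Hochberg adjusted p of 0.05 in limma, a linear model with a spread shared by all genotypes of the block (percent called 0, smallest adjusted p = 1). An unadjusted p under 0.05 was reached by 333 genes (2.25% of those tested), 200 with the higher mean in KIHom (1.35%) and 133 with the lower (0.899%). That is less than the share of 0.05 that chance alone would give if no gene differed. The libraries of the genotypes did not overlap in 231 genes (1.56%), with KIHom above in 134 (0.905%) and below in 97 (0.655%). The smallest unadjusted p of any gene, 7.54e-05, belonged to the predicted gene Gm12353, which had 63.8, 72.8, 69.8 and 69.2 FPKM in KIHom against 56.9, 52.4, 55.8 and 55.4 FPKM in KIHet (limma adjusted p = 1). Gm12353 was named after its value was seen, since predicted genes were otherwise passed over.

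The data bound the size of the difference for most genes. The 95% confidence interval of KIHom minus KIHet, on the log2(FPKM + 1) scale used for all differences here, had a median half-width of 0.21. It lay inside a 1.5-fold change in either direction for 13729 genes (92.8%), inside 1.2-fold for 7181 (48.5%) and inside 2-fold for 14476 (97.8%). Genes with a mean of 10 FPKM or more were bounded within 1.5-fold in 96.8% of cases, and those under 10 FPKM in 88.9%; the added 1 FPKM understates changes of low genes, so their bounds hold on this scale only. The estimate itself went beyond 1.5-fold in 134 genes.

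Atxn3 itself was measured at 5.61, 5.56, 5.6 and 5.44 FPKM in KIHom, against 6.92, 6.19, 5.84 and 5.47 FPKM in KIHet, and in WT it ranged from 6.2 to 8.15 FPKM with a median of 7.07 FPKM. All KIHom libraries lay below the lowest WT library, and the groups KIHom and KIHet overlapped only through KIHet library 4. The difference KIHom minus KIHet was -0.11 (95% interval -0.31 to 0.08, limma unadjusted p = 0.242), and the slope per expanded allele over WT, KIHet and KIHom was -0.15 (limma adjusted p = 0.0908), neither past the threshold. These FPKM do not separate expanded from normal transcripts.

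In the dose series WT, KIHet and KIHom, Chdh, Acy3, Psat1 and Carhsp1 rose, and Il33, Car2 and Pmp22 were among the genes that fell. A straight line through 0, 1 and 2 expanded alleles had a slope that passed in 103 genes (0.696% of those tested), 26 higher (0.176%) and 77 lower (0.520%) with each allele. The split depends on scaling: 74.8% of the calls were lower with FPKM as deposited, 61.1% after median-ratio scaling and 90.2% with every library scaled to the same FPKM sum (equal-sum scaling). In 100 of the 103 the KIHet mean lay between the WT and KIHom means, against 41.9% of all genes. A called slope favours that order, so the count describes the called genes and is no test of grading. Between KIHom and KIHet, 22 of the 103 had a limma unadjusted p under 0.05, against 2.25% of all genes. The slope uses those same libraries. The median ratio of the KIHet change to the KIHom change from WT was 0.739 (quartiles 0.551 to 0.837), where 0.5 would be a straight line. Those changes share the WT libraries. Against them, 89 genes were called in KIHom (0.601%), 21 higher (0.142%) and 68 lower (0.459%), and 17 in KIHet (0.115%), 2 higher (0.0135%) and 15 lower (0.101%).

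**Figure D1:**
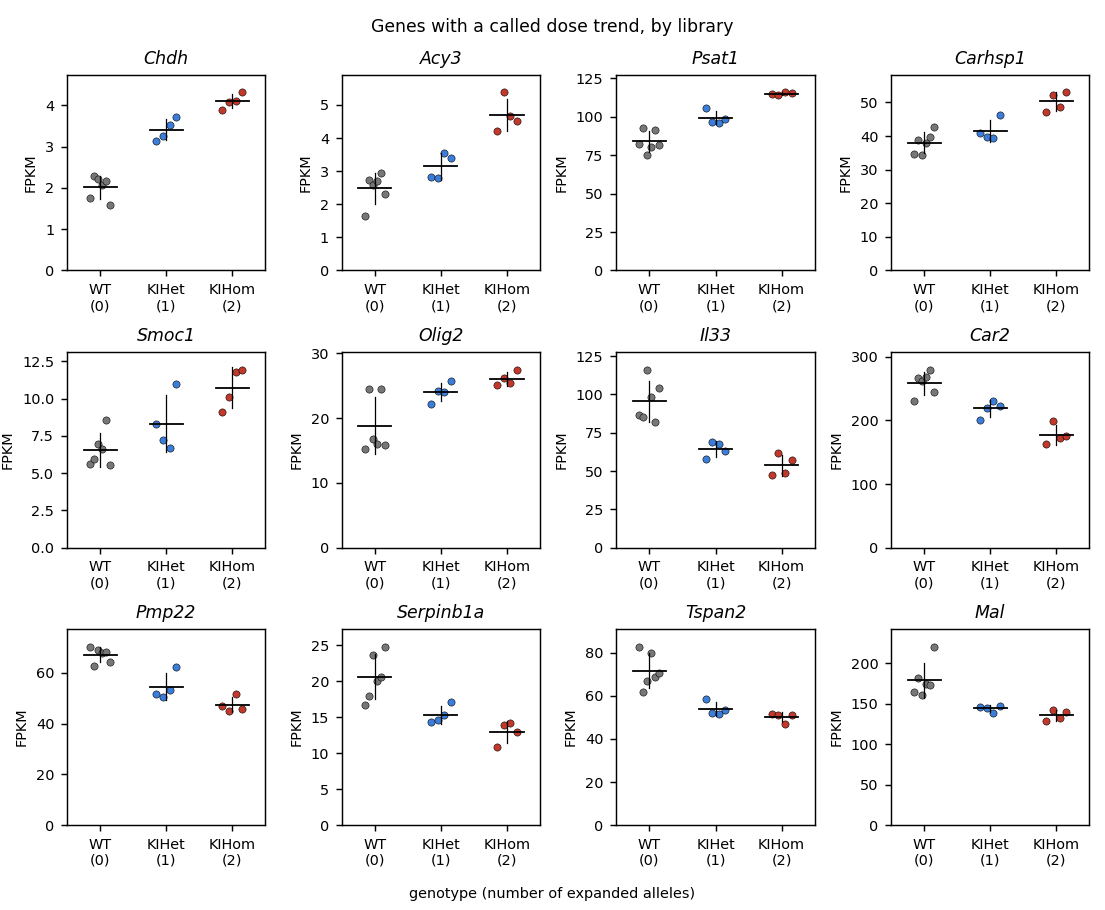
Expression in FPKM of 12 genes with a called dose trend, 1 point per library, in WT (n = 6), KIHet (n = 4) and KIHom (n = 4), ordered by the number of expanded alleles. Horizontal bars are means and vertical bars 1 SD. Chdh, Acy3, Psat1 and Carhsp1 step up at each dose with all KIHom points above all KIHet points, and Car2 and Serpinb1a step down in the same way.

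The enzymes Chdh, Psat1 and Acy3 had the smallest adjusted p-values among the upward trends. Chdh, the mitochondrial choline dehydrogenase that starts betaine synthesis, had 1.59, 2.12 and 2.29 FPKM as the lowest, median and highest of WT, 3.14, 3.26, 3.53 and 3.72 FPKM in KIHet and 3.9, 4.08, 4.11 and 4.32 FPKM in KIHom. The 3 genotypes did not overlap. Chdh rose by 0.39 per allele (SE 0.04, limma adjusted p = 7.97e-06), and KIHom minus KIHet was 0.21 (0.04 to 0.38, limma unadjusted p = 0.0174).

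Acy3, an aminoacylase that removes acetyl groups from amino acid conjugates, ranged from 1.63 to 2.94 FPKM in WT with a median of 2.63 FPKM, and had 2.81, 2.79, 3.56 and 3.4 FPKM in KIHet and 4.22, 5.38, 4.67 and 4.5 FPKM in KIHom. Every KIHom library was above every KIHet library, and the KIHet and WT ranges overlapped. Its KIHom minus KIHet difference of 0.46 (0.24 to 0.69, limma unadjusted p = 0.000287) was one of the smallest p-values of the comparison, and the slope was 0.35 (limma adjusted p = 0.000449). Psat1, the phosphoserine aminotransferase of serine synthesis, had 75.3, 82.2 and 92.7 FPKM as the lowest, median and highest of WT, 105, 96.8, 96.2 and 98.8 FPKM in KIHet and 115, 114, 116 and 116 FPKM in KIHom. None of these ranges overlapped, and the KIHom libraries had an SD of 0.884 FPKM. Psat1 rose by 0.23 per allele (limma adjusted p = 0.000146).

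Genes of the oligodendrocyte lineage moved both ways with dose. Of 12 lineage transcription factors and regulators, 2 rose, Carhsp1 and Olig2 (0.176% of all genes did), 0 fell and 10 did not pass. Their median KIHom minus KIHet difference was 0.104 against -0.00510 over all genes. The list was drawn up with earlier results of these data known, so its counts are no independent support. Carhsp1, an RNA-binding protein placed on that list, rose by 0.20 per allele (limma adjusted p = 0.000873). The lowest, median and highest WT values were 34.5, 38.3 and 42.6 FPKM, KIHet had 40.9, 39.6, 39.3 and 46.3 FPKM, and KIHom had 47.2, 52.2, 48.8 and 53 FPKM. KIHom lay above every KIHet library, and KIHet overlapped WT. Its unadjusted p in KIHom minus KIHet was 0.000253. Olig2, a factor needed to specify the lineage, rose by 0.25 per allele (limma adjusted p = 0.0350). The lowest, median and highest WT values were 15.3, 16.5 and 24.5 FPKM, and the means were 24 ± 1.41 FPKM in KIHet and 26.1 ± 1.04 FPKM in KIHom (n = 4 each). WT overlapped KIHet at its upper end through WT libraries 2 and 5, each at 24.5 FPKM. The call of Olig2 was kept in 6 of the 14 refits with a single library removed and not without the libraries high in Ttr. Sox8, a partner of the lineage factor Sox10, stood at 25.2 ± 1.76 FPKM in KIHom and 21.1 ± 3.90 FPKM in KIHet (n = 4 each), but WT had 22.9 ± 2.31 FPKM (n = 6) and its slope did not pass (limma adjusted p = 0.720).

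Among 41 mature oligodendrocyte and myelin genes, the dose trend was downward in 8 (among them Il33, Serpinb1a, Car2, Tspan2, Pmp22, Mal and Fa2h), upward in 1 (Anln) and not past the threshold in 32, while 0.520% of all genes were called lower and 0.176% higher. Without the libraries high in Ttr, 4 of the 41 fell and 0 rose. Between the knock-in genotypes the list was split: the median KIHom minus KIHet difference was 0.0006, with 21 members above 0 and 20 below, and the interval of 40 of 41 lay inside 1.5-fold. In bulk tissue, fewer cells of a type and less RNA per cell cannot be told apart. The list was drawn up with earlier results of these data known, so its direction is no independent support.

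Il33, a cytokine stored in glial nuclei, had the steepest fall. It stood at 82.1, 92.5 and 116 FPKM as the lowest, median and highest of WT, at 57.8, 68.7, 68 and 63 FPKM in KIHet and at 47.3, 61.6, 49 and 57.2 FPKM in KIHom. Both knock-in genotypes lay below all WT libraries and overlapped each other through KIHom library 2. Il33 fell by 0.42 per allele (limma adjusted p = 0.000285), with a KIHom minus KIHet difference of -0.26 (-0.51 to -0.01). Car2, the cytosolic carbonic anhydrase of oligodendrocytes, ranged from 230 to 279 FPKM in WT with a median of 264 FPKM, and had 201, 219, 231 and 223 FPKM in KIHet and 162, 198, 172 and 176 FPKM in KIHom. Every KIHom library was below every KIHet library. Car2 fell by 0.27 per allele (limma adjusted p = 0.000681), with a KIHom minus KIHet difference of -0.30 (-0.48 to -0.12, limma unadjusted p = 0.00191).

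Pmp22, a tetraspan myelin protein, ranged from 62.8 to 70.2 FPKM in WT, and had 51.7, 50.6, 53.2 and 62.3 FPKM in KIHet and 46.9, 45, 51.7 and 45.9 FPKM in KIHom. Both knock-in genotypes lay below WT and overlapped each other through KIHom library 3. Pmp22 fell by 0.25 per allele (limma adjusted p = 0.000285). Serpinb1a, an inhibitor of serine proteases, had all KIHom libraries (10.8 to 14.2 FPKM) below all KIHet libraries (14.3 to 17.1 FPKM), and fell by 0.32 per allele (limma adjusted p = 0.00780). In Tspan2 and Mal the KIHet mean lay nearer to KIHom than to WT. The tetraspanin Tspan2 stood at 71.8 ± 7.92 FPKM in WT (n = 6), 53.9 ± 3.16 FPKM in KIHet and 50.3 ± 2.33 FPKM in KIHom (n = 4 each). The raft proteolipid Mal had 179 ± 21.4 FPKM in WT, 144 ± 3.93 FPKM in KIHet and 135 ± 6.68 FPKM in KIHom. Tspan2 and Mal fell by 0.26 and 0.20 per allele (limma adjusted p = 0.000723 and 0.00461). Their KIHom minus KIHet differences were -0.10 and -0.09, each with an interval that includes 0 (-0.26 to 0.06 and -0.24 to 0.06).

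Anln, an actin-binding protein also found in myelin, went the other way, with 42.3, 42.6, 41.4 and 42.0 FPKM in KIHom against 39.9, 34.8, 34.2 and 35.4 FPKM in KIHet, and rose by 0.18 per allele (limma adjusted p = 0.0191). WT libraries 1 to 6 had 29.8, 39.4, 29.6, 29.9, 38.3 and 29.6 FPKM, so WT libraries 2 and 5 lay within the KIHet range. The call of Anln was kept in 8 of the 14 refits with a single library removed and not after equal-sum scaling. Mbp, a major component of the myelin sheath, is listed at 0 in all WT libraries and was left out of the model. It had 4655, 5890, 5174 and 5470 FPKM in KIHom and 4632, 4872, 4960 and 5819 FPKM in KIHet, ranges that overlapped (log2 difference 0.06, exact two-sided permutation p = 0.543; 0.0286 is the smallest possible with 4 against 4). Of 19 precursor genes, 0 passed the trend test, and the median KIHom minus KIHet difference was 0.0504, or -0.0330 without the libraries high in Ttr. The member with the smallest p, Gpr17, a receptor of differentiating precursors, had 8.15 ± 0.46 FPKM in KIHom and 6.66 ± 1.66 FPKM in KIHet (n = 4 each, limma unadjusted p = 0.0732).

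The count of trends is sensitive to single libraries of WT and KIHom, and less so to those of KIHet. It was 40, 59, 22 and 70 without KIHom libraries 1 to 4, and 30, 216, 26, 27, 174 and 37 without WT libraries 1 to 6. Without KIHet libraries 1 to 4 it was 106, 88, 87 and 99. It was 12 without the 1 KIHom, 2 KIHet, 1 WT and 3 dupKIHet libraries above 500 FPKM of Ttr, 11 of them among the 103. With all libraries kept and a choroid plexus covariate added to the model it was 112, of which 101 were among the 103. The count was 16 when only WT, KIHet and KIHom were fitted. A core of 17 genes, 4 higher and 13 lower, was called in each of the 14 refits with a single library removed and in both other scalings. The 4 were Chdh, Acy3, Psat1 and Carhsp1. The 13 included Il33, Car2, Pmp22, Tspan2, Mal and Serpinb1a, together with Pde8a, a cyclic AMP phosphodiesterase, Kdm6b, a histone demethylase, Pls1, an actin-bundling plastin, and Sqle, squalene epoxidase; Clmn, Mga and 2610507I01Rik complete it. Of the 17, 11 were also called without the libraries high in Ttr, and Kdm6b, Mal, Mga, Pls1, Serpinb1a and Sqle were not. No trend outside the 17, those of Olig2, Anln and Smoc1 among them, was kept without those libraries. Pde8a, Kdm6b, Pls1, Clmn, Mga and 2610507I01Rik are named for their stability, after their values were seen. Smoc1, a secreted calcium-binding protein with a slope of 0.32 (limma adjusted p = 0.0137), missed in 1 of those refits (limma adjusted p = 0.0571). It had 9.09, 10.1, 11.8 and 11.9 FPKM in KIHom and 8.27, 7.25, 6.7 and 11 FPKM in KIHet, overlapping through KIHet library 4.

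Few of the smallest p-values of KIHom minus KIHet belonged to genes that followed the dose. Of the 10 genes with the smallest p in each direction, 20 in all, 4 had a KIHet mean between WT and KIHom: Carhsp1, Acy3 and Psat1, which were higher in KIHom, and Car2, which was lower. Picking genes for a large gap between KIHom and KIHet favours a KIHet mean at one end, so the count describes these 20 and is no test of grading. In 9 of the 20, KIHom was nearer to WT than KIHet was. None of the 20 passed the adjusted threshold.

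**Figure D2:**
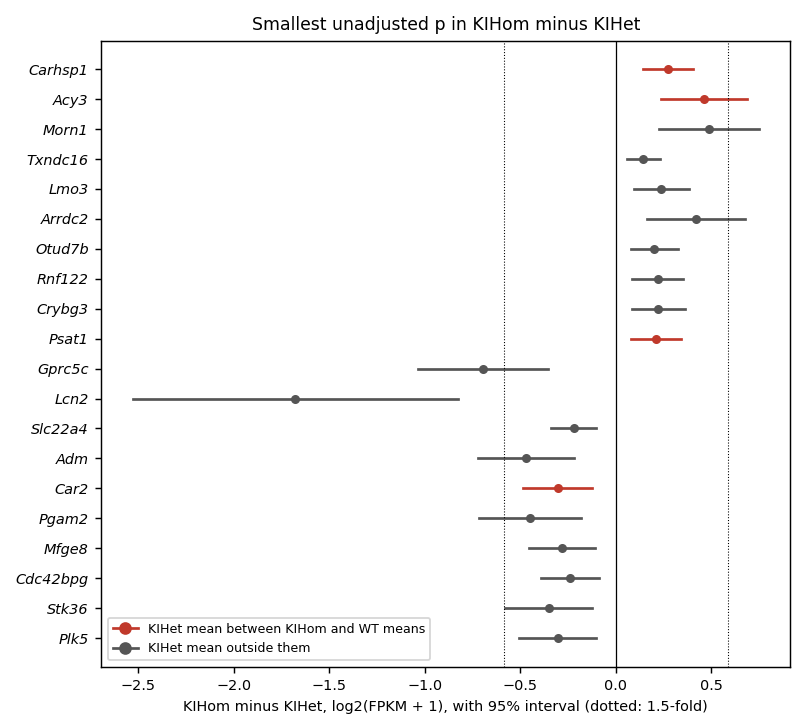
Difference KIHom minus KIHet in log2(FPKM + 1) with its 95% interval for the 10 genes with the smallest unadjusted p in each direction, KIHom higher at the top and lower at the bottom. The 4 genes drawn in red, Carhsp1, Acy3, Psat1 and Car2, have a KIHet mean between those of KIHom and WT; no gene passes the adjusted threshold.

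Lcn2, a secreted lipocalin of inflamed glia, had the largest of these differences, -1.68 (-2.53 to -0.83, limma unadjusted p = 0.000429). It had 0.654, 0.4, 0.919 and 4.1 FPKM in KIHom, against 21.5, 3.4, 4.9 and 3.07 FPKM in KIHet, and 0.542 to 2.18 FPKM in WT. KIHet library 1 is far above the rest, and KIHom library 4 lies among the KIHet values. Adm, the vasodilator peptide adrenomedullin, had 3.28, 3.77, 3.38 and 2.72 FPKM in KIHom and 4.88, 4.49, 4.9 and 5.43 FPKM in KIHet, with WT at 2.83 to 4.7 FPKM. KIHom lay below every KIHet library, and WT overlapped both. Gprc5c, an orphan receptor, had 0.708 to 1.66 FPKM in KIHom and 2.07 to 3.12 FPKM in KIHet, and WT at 0.762 to 2.24 FPKM overlapped both. Slc22a4, a transporter of ergothioneine, stood lower in KIHom (8.26 ± 0.466 FPKM) than in KIHet (9.79 ± 0.411 FPKM, n = 4 each), and KIHet was close to WT (9.75 ± 0.595 FPKM, n = 6).

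Among the higher ones, Morn1 had 3.43 ± 0.696 FPKM in KIHom, against 2.14 ± 0.388 FPKM in KIHet (n = 4 each) and 3.23 ± 0.396 FPKM in WT (n = 6). Otud7b, a deubiquitinase of the ovarian tumour family, had 28.9, 32.9, 30.1 and 31.6 FPKM in KIHom and 24.7, 25.5, 27.9 and 28.9 FPKM in KIHet, and WT had a median of 27.7 FPKM. KIHom and KIHet overlapped only through KIHom library 1 and KIHet library 4. Arrdc2, an arrestin-domain protein, had 8.35, 8.84, 8.97 and 9.14 FPKM in KIHom against 6.14, 7.07, 6.2 and 5.97 FPKM in KIHet, without overlap; WT spanned both at 5.44 to 9.42 FPKM.

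A direct test asked whether heterozygotes departed from the middle of WT and KIHom. The departure passed in 0 of 14802 genes by limma (percent called 0, 525 at an unadjusted p under 0.05, smallest adjusted p = 0.168). The genes with the smallest p, picked out after their values were seen, are Klf2, Sgk1, Lcn2, Ddit4 and Nfkbia. Klf2, a flow-responsive transcription factor of endothelium, had 1.3 to 2.76 FPKM in WT, 0.825, 0.57, 0.467 and 0.45 FPKM in KIHet and 0.941, 0.977, 1.3 and 1.15 FPKM in KIHom. Sgk1, a kinase induced by glucocorticoids, had 78.8 to 128 FPKM in WT, 35.9, 44.3, 56.7 and 33.9 FPKM in KIHet and 50.2, 50.6, 60.8 and 54.4 FPKM in KIHom. The KIHet mean was the lowest for both; KIHom library 3 reached the lowest WT value of Klf2, and Sgk1 was below WT in all 8 libraries. The departures were -0.68 and -0.76 (limma unadjusted p = 1.56e-05 and 2.80e-05). For Klf2, a low gene, the departure was -1.26 and passed with a pseudocount of 0.1 (limma adjusted p = 0.0164), and it was -0.73 and passed without WT library 2 (limma adjusted p = 0.0463). In the other alternatives that tested it the adjusted p did not pass and reached 0.623. Lcn2 passed without KIHom library 4, with a departure of 1.96 (limma adjusted p = 0.0379). Ddit4, an inhibitor of mTOR signalling, had 30.3 to 44.8 FPKM in WT, 20.8 to 22.4 FPKM in KIHet and 23.6 to 25.6 FPKM in KIHom, with no overlap. Nfkbia, the inhibitor of NF-kappa-B, had 13.3 to 16.4 FPKM in WT, 7.89 to 10.3 FPKM in KIHet and 11 to 11.6 FPKM in KIHom, again with no overlap.

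**Figure D3:**
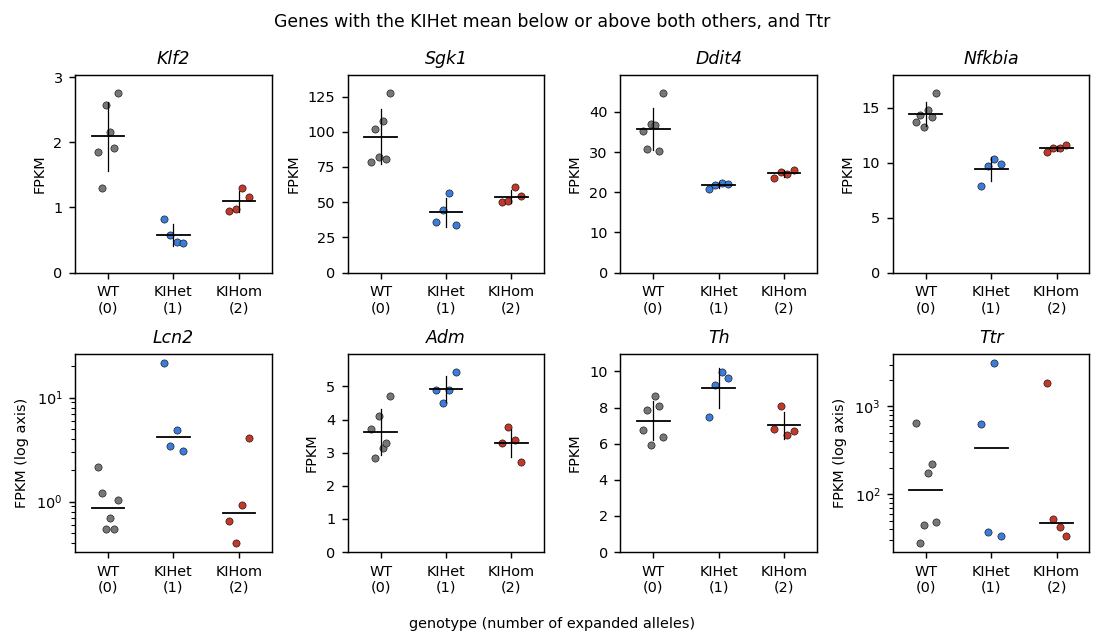
Expression in FPKM by library for 7 genes whose KIHet mean is below or above those of both other genotypes, and for Ttr as a gauge of choroid plexus, in WT (n = 6), KIHet (n = 4) and KIHom (n = 4). Bars are means with 1 SD, or medians on the log axes of Lcn2 and Ttr. Klf2, Sgk1, Ddit4 and Nfkbia are lowest on average in KIHet, Lcn2, Adm and Th highest; single KIHet points of Sgk1, Lcn2, Adm and Th fall within the range of another genotype, and none passes the adjusted test of departure.

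Glucocorticoid-responsive genes, the list to which Sgk1, Ddit4 and Nfkbia belong, had a median KIHom minus KIHet difference of 0.167, against -0.00510 over all genes, with 14 of 18 members above 0 (47.1% of all genes were). By unadjusted p under 0.05, 5 of 18 were higher in KIHom and 0 lower, against 1.35% and 0.899% of all genes, and in 4 the libraries did not overlap (0.905% of all genes with KIHom above). The 5 were Arrdc2, Nfkbia, Errfi1, Tsc22d3 and Cdkn1a. Errfi1, a feedback inhibitor of the EGF receptor, had 17.1 ± 0.439 FPKM in KIHom and 15.2 ± 0.382 FPKM in KIHet (n = 4 each), with WT at 16.6 ± 1.32 FPKM (n = 6). Tsc22d3, a mediator of glucocorticoid action, had 103 ± 5.04, 90.7 ± 4.35 and 101 ± 13.3 FPKM in KIHom, KIHet and WT. The median over the list was 0.160 without the libraries high in Ttr. The interval of KIHom minus KIHet lay inside 1.5-fold for 12 of 18, against 92.8% of all genes. Summed FPKM of the list overlapped, at 1159 to 1309 in KIHom and 1174 to 1320 in KIHet. In the dose trend 1 member, Ddit4, fell and 17 did not pass, while 0.520% of all genes were called lower.

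Lists of the ubiquitin and protein quality system were narrowly bounded. Of 34 proteasome subunits, 18 heat shock genes and 31 autophagy genes, 0 passed the trend test, and the KIHom minus KIHet interval lay inside 1.5-fold for 34, 18 and 30. Their medians were -0.0103, -0.0154 and -0.00538. The exception among the autophagy genes was Becn1, a core factor of autophagosome formation, whose interval reached 1.63-fold. Of 22 genes of ataxin-3 and its partners none passed and 21 were inside 1.5-fold, again with Becn1 outside. The 9 polyglutamine disease genes were all bounded within 1.24-fold, the widest being Atxn3. Of the 15 protein-coding genes on either side of Atxn3 in RefSeq order, 23 were tested, 0 passed the trend test and 22 were inside 1.5-fold. Ribosomal protein genes (43) and respiratory chain genes (42) were also all inside 1.5-fold. With FPKM as deposited the slope was above 0 in 43 of 43 ribosomal genes, against 41.7% of all genes. After equal-sum scaling it was above 0 in 39 of 43. None passed with FPKM as deposited (1 passed after median-ratio scaling).

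Of 19 cholesterol synthesis and uptake genes, 4 fell with dose (among them Sqle, Insig1 and Mvd) and 15 did not pass, while 0.520% of all genes were called lower. The slope, below 0 in 58.2% of all genes, was below 0 in 19 of 19 under the deposited, median-ratio and equal-sum scalings. The median slope was -0.120 against -0.0126 over all genes. Sqle, the epoxidase of the sterol pathway, had 34.2 to 38.7 FPKM in WT, 31.2 to 33.5 FPKM in KIHet and 30.3 to 31.8 FPKM in KIHom, so both genotypes lay below WT and overlapped each other. Insig1, the sterol sensor that retains SREBP in the ER, had 86.6 ± 11.1 FPKM in WT (n = 6), 70.7 ± 2.97 FPKM in KIHet and 67 ± 4.15 FPKM in KIHom (n = 4 each). Here too WT libraries 2 and 5 were the lowest of WT, at 71.6 and 73.9 FPKM. Mvd, mevalonate decarboxylase, had 14.1 ± 1.82 FPKM in WT, 10.9 ± 1.7 FPKM in KIHet and 9.71 ± 0.652 FPKM in KIHom. The calls of Insig1 and Mvd were kept in 9 and 8 of the 14 refits with a single library removed. That of Insig1 was lost after median-ratio scaling. The interval of KIHom minus KIHet was inside 1.31-fold for all 19. Without the libraries high in Ttr, 0 of 19 passed and 19 of 19 slopes stayed below 0.

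Of 21 endothelial and mural genes, 3 fell with dose (Flt1, Pecam1 and Slco1a4), 0 without the libraries high in Ttr, and 18 did not pass, while 0.520% of all genes were called lower. The slope was below 0 in 21 of 21 (58.2% of all genes), and 17 intervals of KIHom minus KIHet lay inside 1.5-fold. Flt1, a VEGF receptor, had 6.95, 10.2 and 11.6 FPKM as the lowest, median and highest of WT, 6.48, 5.8, 6.21 and 7.41 FPKM in KIHet and 5.82, 6.61, 5.82 and 6.91 FPKM in KIHom. Gpr116, an adhesion receptor of endothelium outside that list, had 5.47 ± 1.34 FPKM in WT (n = 6), 3.19 ± 0.325 FPKM in KIHet and 3.12 ± 0.181 FPKM in KIHom (n = 4 each). WT libraries 2 and 5 were the lowest of WT in Flt1 (6.95 and 7.80 FPKM) and in Gpr116 (4.01 and 3.60 FPKM). KIHom and KIHet overlapped each other in both genes, and only KIHet library 4 reached the WT range of Flt1. The slopes of Flt1 and Gpr116 were -0.27 and -0.33 per allele (limma adjusted p = 0.0350 and 0.0156). KIHet minus WT was -0.48 and -0.60, while KIHom minus KIHet was -0.04 (-0.30 to 0.225) and -0.02 (-0.29 to 0.24). The fall thus lay between WT and KIHet, with none resolved between KIHet and KIHom. These calls were kept in 8 and 10 of the 14 refits with a single library removed. Pecam1 was kept in 8 of the refits and Slco1a4 in 2, and Slco1a4 was lost in both other scalings. In dupKIHet, set against the same WT libraries, Flt1 was higher by 0.42 (limma adjusted p = 0.0238). Summed FPKM of the list overlapped between genotypes, at 222 to 327 in WT, 209 to 263 in KIHet and 207 to 253 in KIHom; the part of vessel content in these trends was not tested.

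Astrocyte genes were lower in KIHom than in KIHet in 21 of 23 (52.8% of all genes were lower), by a median of -0.0530 against -0.00510 over all genes, and all 23 intervals lay inside 1.5-fold. Of them 2 fell with dose (0.520% of all genes did), the GABA transporter Slc6a11 (-0.14 per allele, limma adjusted p = 0.0152) and the bicarbonate transporter Slc4a4 (-0.18, limma adjusted p = 0.0356), neither without the libraries high in Ttr. Slc6a11 was kept in 13 of the 14 refits with a single library removed but in neither other scaling. Slc4a4 was kept in 8 of those refits and in both other scalings. Summed over the list, FPKM were 4283 to 4580 in KIHom and 4550 to 4822 in KIHet. The calcium-binding protein S100b was one of the 2 above 0, at 306, 370, 345 and 337 FPKM in KIHom and 279, 294, 304 and 315 FPKM in KIHet (limma unadjusted p = 0.0227). Microglia and complement genes had 15 of 20 below 0, a median of -0.0965 and no call.

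Among neurons, monoamine and cholinergic genes had no trend, with 0 of 19 called. Th, the rate-limiting enzyme of catecholamine synthesis, had 6.79, 8.10, 6.49 and 6.68 FPKM in KIHom, against 7.49, 9.25, 9.97 and 9.65 FPKM in KIHet, and WT ranged from 5.92 to 8.65 FPKM. Calca, which encodes the peptide CGRP, had 17.7 ± 1.2, 22.8 ± 3.07 and 18.5 ± 2.61 FPKM in KIHom, KIHet and WT. Both were thus near WT in KIHom and higher in KIHet (limma unadjusted p = 0.00859 and 0.0325 between KIHom and KIHet). Gabrb2, a GABA-A receptor subunit, had 15.9, 17.1, 14.6 and 15.0 FPKM in KIHom and 20.2, 26.4, 17.1 and 20.2 FPKM in KIHet, without overlap, and WT spanned both at 15.3 to 26.1 FPKM. Interferon genes (19 measured), clock genes (19) and metallothionein and zinc genes (9) had no call either, and the last 2 lists were wholly inside 1.5-fold.

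Of 25 ER stress and ATF4 targets, 1 rose, Psat1, and 1 fell, Ddit4, whose KIHet mean was below that of KIHom. Over all genes, 0.176% were called higher and 0.520% lower. Of 16 immediate early genes 1 fell, Dusp1, a phosphatase of MAP kinases, at 12.4 ± 1.56 FPKM in WT (n = 6), 9.49 ± 0.599 FPKM in KIHet and 9.07 ± 0.367 FPKM in KIHom (n = 4 each). Of 14 glycine and GABA genes 1 fell, the glycine transporter Slc6a9, at 127 ± 7.2 FPKM in WT, 107 ± 9.66 FPKM in KIHet and 106 ± 8.09 FPKM in KIHom. Etv1, a factor of cerebellar granule cells, rose by 0.24 per allele (limma adjusted p = 0.0228). In Dusp1 and Slc6a9 the KIHom and KIHet libraries overlapped. Of the 14 refits with a single library removed, the call was kept in 9 for Etv1, 7 for Ddit4, 7 for Dusp1 and 6 for Slc6a9, and all 4 calls were lost without the libraries high in Ttr. Etv1 was also lost after equal-sum scaling and Dusp1 after median-ratio scaling.

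Genes of neighbouring tissue were the least bounded of the lists. Over all genes, 52.8% were lower in KIHom than in KIHet and 47.1% higher. Choroid plexus genes were lower in KIHom in 16 of 17, with a median of -0.336, but only 1 of 17 intervals lay inside 1.5-fold and the limits of Ttr reached 30.9-fold. Their summed FPKM ran from 529 to 2943 in KIHom and from 510 to 4479 in KIHet, and without the libraries above 500 FPKM of Ttr the median was 0.0849, with 12 of 17 above 0. Genes of cerebellar cortex and pontine nuclei were lower in 14 of 16 (median -0.166). The granule cell gene Gabra6 had 5.40, 0.537, 4.68 and 4.09 FPKM in KIHom and 19.6, 3.77, 3.82 and 4.67 FPKM in KIHet, so KIHet library 1 and KIHom library 2 are at opposite ends. Cbln1, a synaptic organizer of cerebellum, was lower in KIHom without overlap (27.0 to 34.3 FPKM, against 35.8 to 39.1 FPKM in KIHet). Blood cell genes were lower in 5 of 5 (median -0.445, and -0.284 without the libraries high in Ttr). Hox genes, which mark position along the hindbrain, were higher in 6 of 8 (median 0.154, and 0.424 without the libraries high in Ttr). Hoxa5 had 9.62, 7.61, 9.83 and 7.01 FPKM in KIHom and 7.79, 5.01, 7.62 and 1.55 FPKM in KIHet. The part that dissection has in these differences was not tested.

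The response to the other knock-in gave a set of genes chosen by a contrast that holds no KIHom or KIHet library. In dupKIHet against WT, 375 genes were called (2.53%), 172 higher (1.16%) and 203 lower (1.37%). Of the 172, 135 (78.5%) were higher in KIHom than in KIHet, with a median difference of 0.0719 (quartiles 0.0118 to 0.130). Of the 203, 160 (78.8%) were lower in KIHom, with a median of -0.0581 (-0.102 to -0.0161). Over all genes, 47.1% were above 0 and the median was -0.00510. An unadjusted p under 0.05 between KIHom and KIHet was reached by 30 of the 172, all with the higher mean in KIHom, and by 6 of the 203, 5 of them with the lower. Over all genes 2.25% reached it, 1.35% with the higher mean in KIHom and 0.899% with the lower. The 2 contrasts share no library, but KIHom and KIHet libraries entered the spread estimate behind the calls; the comparison was added after the data were seen, and genes are not independent of each other. Without the libraries high in Ttr the counts were 126 of 172 and 164 of 203, and leaving out single libraries gave 127 to 138 and 144 to 168.

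**Figure D4:**
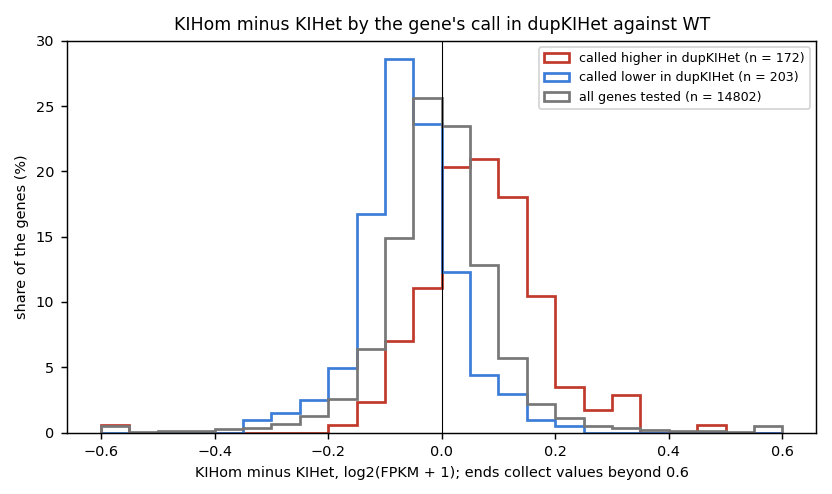
Share of genes (%) by KIHom minus KIHet in log2(FPKM + 1), for the 172 genes called higher and the 203 called lower in dupKIHet against WT and for all 14802 genes tested. The outline of the genes called higher is shifted to the right (median 0.0719) and that of the genes called lower to the left (median -0.0581).

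Single genes that changed in other knock-in or transgenic models did not all move with the dose of the single-repeat allele. Of 28 such genes measured, 3 rose (Chdh, Acy3 and Smoc1), 6 fell (Il33, Car2, Serpinb1a, Tspan2, Mal and Slc6a11) and 19 did not pass. Over all genes, 0.176% rose and 0.520% fell. The list was drawn from results of this series and includes dupKIHet, which shares WT, so its counts are no independent support. Agt, Nnat, Etnppl and Mt1 fell in dupKIHet, and in the single-repeat genotypes their slopes did not pass. Agt, the astrocytic angiotensin precursor, had 50.5 to 66.3 FPKM in WT, 56.2, 56.9, 59.8 and 65 FPKM in KIHet and 49.4, 59.1, 59.2 and 60 FPKM in KIHom, all overlapping. Its slope was -0.04 (limma adjusted p = 0.840), while dupKIHet differed from the same WT libraries by -1.45. Nnat, a proteolipid of developing neurons, had 177 ± 26.7 FPKM in WT (n = 6), 182 ± 45.1 FPKM in KIHet and 177 ± 36.8 FPKM in KIHom (n = 4 each), beside a dupKIHet minus WT difference of -1.07. Etnppl, an astrocytic lipid enzyme, had 31.0, 34.6, 31.6 and 35.9 FPKM in KIHom against 40.9, 43.4, 41.8 and 32.8 FPKM in KIHet (difference -0.24, interval -0.54 to 0.05), and dupKIHet differed from WT by -1.48. The zinc-binding Mt1 had 504 ± 37.5 FPKM in KIHom and 561 ± 39 FPKM in KIHet (n = 4 each), with an interval of -0.45 to 0.14.

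Slc1a2 and Zfp488 came close to the threshold of the trend. Slc1a2, the main glutamate transporter of astrocytes, had 198 ± 15.1 FPKM in WT (n = 6), 169 ± 6.52 FPKM in KIHet and 164 ± 7.07 FPKM in KIHom (n = 4 each), with a slope of -0.14 that missed the threshold (limma adjusted p = 0.0633). Zfp488, a repressor that promotes oligodendrocyte differentiation, had 2.43 to 3.31 FPKM in WT, 3.45, 3.37, 2.87 and 3.39 FPKM in KIHet and 4.21, 4.16, 3.56 and 3.16 FPKM in KIHom, with a slope of 0.15 (limma adjusted p = 0.0639). Klk6, a protease of oligodendrocytes, had 44.8 ± 7.33 FPKM in KIHom and 50.3 ± 12.9 FPKM in KIHet (n = 4 each), against 59.0 ± 8.41 FPKM in WT (n = 6), and its interval of KIHom minus KIHet, -0.53 to 0.24, includes 0.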

How the data were processed

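RNA was extracted from pons with Trizol and purified on columns, per the labels' protocols. The authors deposited FPKM per gene and library; per the submitters' processing notes the tools included TopHat2, Cuffdiff, Trimmomatic and CASAVA 1.8.2, and the build was mm8, with no role or order given. FPKM hold no read totals, so depth and counting error are unknown and precision rests on the spread between libraries.

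Of 37 FPKM columns, the 9 of the first block were not used. Of the 6 wild-type columns, 3 carry names that fit 2 samples each, so only their group is known. Of 41386 lines, 27 with a date as name were left out and 132 repeats summed (41227 genes). FPKM summed to 430083 to 560516 per library. A further 12 genes listed at 0 in a whole genotype and expressed in another, Mbp among them, were left out as possible failed estimates. Near-identical, overlapping and antisense genes are uncertain.

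Genes with 1 FPKM or more in 3 libraries were fitted as log2(FPKM + 1) in limma 3.58.1 (R 4.3.3; lmFit, eBayes with a trend), with 1 mean for each of 6 genotypes; the slope model replaced the WT, KIHet and KIHom means by 0, 1 and 2 alleles. Tests are two-sided, adjusted by Benjamini-Hochberg over all genes, and all p-values of genes come from limma unless named. The script was tested on simulated data. Named genes are Atxn3, the 10 smallest p-values in each direction of KIHom minus KIHet, the 10 largest called slopes in each direction, up to 4 members of each list by p, Mbp and genes that moved in other models; predicted genes were passed over. Genes outside this rule (markers, Fa2h, Sqle, Slc4a4, Becn1, Gabra6, Klf2, Sgk1 and those said to be so) were named after their values were seen. Members and lists were chosen with earlier results of these data known. Some genes that were called or used as markers are not reported here. Figures used matplotlib 3.10.9.

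KIHom and KIHet share replicate numbers 1 to 4, but the correlations of same-numbered deviations (0.287, 0.0557, 0.0687 and 0.315) did not all exceed 0.1, so they were not treated as pairs.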

Additional observations from a re-analysis of the deposited data

Results flagged for a closer look

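Among the genes examined singly, single libraries lay far from the rest of their group in the cases below, judged by the gap to the nearest library over the group's range. Chance gives such a gap in about 1 in 20 groups, and 16 of 291 gene and genotype groups showed one.

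Ttr stood at 1870 FPKM in KIHom library 1, against 52.1 FPKM in the next, and at 643 FPKM in WT library 1. Lcn2 was at 4.10 FPKM in KIHom library 4 and at 21.5 FPKM in KIHet library 1, and Gabra6 was at 19.6 FPKM in that library. In KIHom library 1, Agt (49.4 FPKM), Bcas1 (244 FPKM), Kdm6b (3.57 FPKM) and Lmo3 (12.1 FPKM) were low and Etv1 (34.4 FPKM) and Gja1 (137 FPKM) high. This is the library high in Ttr, and what that has to do with these values was not tested. In KIHom library 3, Tspan2 (46.8 FPKM) and Olig1 (96.3 FPKM) were low and Ddx3y was at 0.0215 FPKM against 0 in the other KIHom libraries. Zfp488 was low in KIHet library 3 (2.87 FPKM), and Mal was high in WT library 6 (220 FPKM).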

How the results depend on the processing

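The count of genes that differ between KIHom and KIHet was 0 under every alternative run, including another pseudocount, other filters, both scalings, a choroid plexus covariate and each library left out. KIHom and KIHet libraries share numbers but were not treated as pairs, and whether the numbers pair them is unknown. With the replicate block the count was 0, with 919 genes at an unadjusted p under 0.05 against 333. Of the 8 libraries, 7 correlated best with their own number, a hint of pairing from the data only. The 103 dose trends became 47 without a filter on low values, 16 with WT, KIHet and KIHom alone and 12 without the libraries above 500 FPKM of Ttr (chosen after seeing the data), and ranged from 22 (without KIHom library 3) to 216 (without WT library 2) when 1 library was left out; the cause was not tested. Median-ratio scaling gave 108 (72 shared with the 103), equal-sum scaling 102 (68 shared) and a choroid plexus covariate 112 (101 shared). The 0 departures became 1 with a pseudocount of 0.1 (Klf2), and 0 to 1 when 1 library was left out (Lcn2 without KIHom library 4 and Klf2 without WT library 2). Bounds within 1.5-fold covered 24964 of 26531 genes without the filter. With a pseudocount of 0.1 they covered 12534 of 14802 genes, against 13729 in the main fit. Of 1054 checks of single slopes, 253 lost and 4 gained the threshold and none changed sign. Of 1836 checks of single KIHom minus KIHet differences, 8 changed sign, all when 1 library was left out: Agt (-0.0898 to 0.00203), Nnat (-0.170 to 0.113), Klk6 (-0.265 to 0.00728), Flt1 (-0.0796 to 0.0224) and Gpr116 (-0.0679 to 0.0149). Klk6 changed sign without KIHet library 4, where it stood at 67.8 FPKM. With 4 libraries per genotype and unknown depth, low genes and genes of neighbouring tissue are the least bounded.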
